A study of Mus musculus with 6 samples.

Results

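Progression from G1 into S phase and the copying of DNA were followed through 45 genes in RNA sequencing of 266.6 cells, a mouse pancreatic acinar tumour line. The genes were chosen by function, as rows of the deposited table with the symbols of G1/S cyclins, cyclin-dependent kinases and E2F factors, origin licensing and helicase proteins, polymerases and their clamp, and enzymes of deoxynucleotide synthesis. All 45 had a row among 20596 named genes and all 45 passed the filter on low values. Each was above the filter's minimum of 10 in all 6 libraries, so none entered only through the group in which it was higher. The CAF_CM group held 3 libraries of 266.6 cells kept for up to 40 days in medium conditioned by cancer-associated fibroblasts, and the control group held 3 libraries of the same line labelled as control. The treatment note with the medium and its time is the same for all 6 samples, and neither the medium nor the time in culture of the control cells is stated, so the medium and the length of culture cannot be told apart. The 266.6 line is known to derive from an acinar tumour of a mouse that carried the T antigen of SV40 under an elastase promoter, a viral protein that binds the Rb family and p53, and both groups share that background.

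Reads per library ran from 19517839 to 21002226 in CAF_CM and from 18622370 to 19953198 in control. Separate cultures are not stated for the replicates, and a p-value here reflects variation among these libraries only, possibly technical. Values are normalized counts, the reads of a gene divided by a factor for its library. The spread was unequal, with a biological coefficient of variation of 8.22% among CAF_CM and 2.21% among control libraries, and limma fitted 1 variance per gene to both groups. Of 14 acinar marker genes, 13 had a row, and their summed level was 1964 to 2300 CPM in CAF_CM and 3587 to 3766 CPM in control libraries. Ctrb1 (23668 normalized counts in CAF_CM and 45083 in control) and Cela1 (7384 in CAF_CM and 12701 in control) made up most of that sum, and of 12 acinar markers tested 5 fell, 1 (Nr5a2) rose and 6 did not pass. Fibroblast markers with a row numbered 8 of 11, with summed levels of 158 to 183 CPM in CAF_CM and 183 to 192 CPM in control libraries, while Col3a1, Lum and Fap had none. Pdgfrb (3016 normalized counts in CAF_CM and 3254 in control) made up most of that sum, and of 7 tested Col1a2 rose (0.48, adjusted p = 0.0299), Dcn fell (-0.93, adjusted p = 0.0130) and 5 did not pass. The summed markers of immune cells (3 of 8 with a row, with none for Cd3e or Itgam) were at 3.15 to 5.01 CPM in CAF_CM and 4.97 to 5.49 CPM in control, those of endothelial cells (3 of 6, with none for Cdh5 or Vwf) at 7.92 to 9.60 CPM in CAF_CM and 10.2 to 11.6 CPM in control, and those of islet cells (2 of 6, with none for Ins1 or Ins2) at 0.811 to 1.43 CPM in CAF_CM and 0.861 to 1.51 CPM in control. The part of these marker differences in the results on replication genes was not tested.

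As background, D-type cyclins with Cdk4 and cyclin E with Cdk2 phosphorylate the Rb family and so release E2F factors, which switch on most replication genes, and p27, the product of Cdkn1b, holds these kinases back. In G1 the origin recognition complex, Cdc6 and Cdt1 load the Mcm2 to Mcm7 helicase onto DNA, a step called licensing that geminin blocks once S phase has begun. The kinase Cdc7 with Cdc45, GINS and Mcm10 then turns the loaded helicase into a moving fork, where primase and polymerases copy the strands. In bulk RNA, fewer cells in a cycle phase and less RNA per cell cannot be told apart.

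The replication genes moved in both directions and by small amounts. In limma on log2(value + 1), with a Benjamini-Hochberg threshold of 0.05 over 16169 genes, 7 of the 45 rose in CAF_CM, 12 fell and 26 did not pass. These were 15.6% higher and 26.7% lower, 42.2% in all, of the 45 genes, beside 18.3%, 16.1% and 34.4% of all genes tested. The share over all genes depended on the filter on low values. With its minimum at 50 in place of 10, 39.8% of 12969 genes were called, and the calls among the 45 were still 7 higher and 12 lower. With library totals as the scaling, 5 of the 45 were called higher and 15 lower. Over all 16169 genes that scaling called 2231 higher and 3179 lower, 33.5% in all. In the main fit the median log2 fold change was -0.020 for the 45 genes and 0.0046 for all genes tested. The median absolute log2 fold change was 0.12 for the 45 genes and 0.19 for all genes. With transcript length and GC content modelled the median log2 fold change of the 45 genes was 0.0040, and that of all genes is not given. Fold changes ran from -0.44 for Prim1 to 0.29 for Fen1. All 3 CAF_CM libraries lay above all 3 control libraries for 10 of the 45 genes and below them for 16, beside 24.8% and 22.9% of all genes tested. The CAF_CM SD exceeded the control SD in 36 of 45 genes, and the median coefficient of variation was 4.27% in CAF_CM and 1.76% in control.

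**Figure D1:**
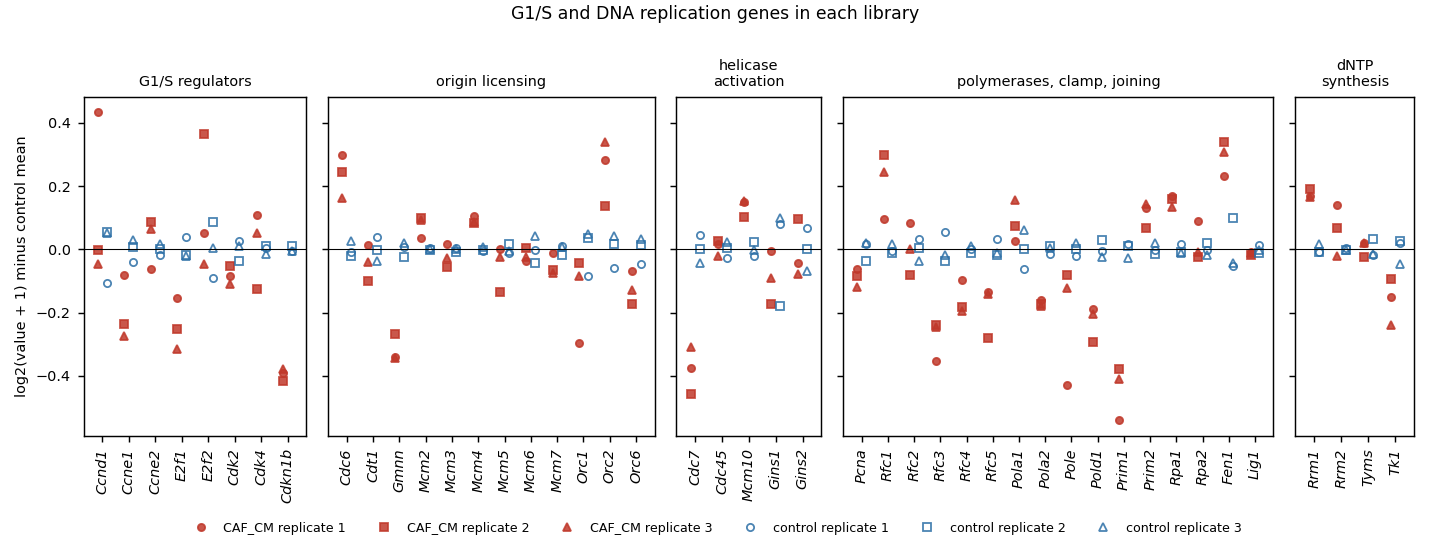
Each point is 1 library's log2(value + 1) of a gene minus the mean of the 3 control libraries, with filled red symbols for CAF_CM and open blue symbols for control libraries, ordered by role. Cdkn1b, Gmnn, Cdc7 and Prim1 have all 3 CAF_CM points well below zero, whereas the Mcm2 to Mcm7 points stay close to it.

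These counts depended on which library of either group was left out, and so did the calls over all genes. The share of all genes tested that was called was 34.4% with all libraries. It was 21.8%, 22.8% and 23.6% without control replicate 1, 2 and 3. Without CAF_CM replicate 1, 2 and 3 it was 39.9%, 36.4% and 27.2%. Among the 45 genes the calls were 2 higher and 6 lower without control replicate 1. They were 3 and 7 without control replicate 2, and 4 and 7 without control replicate 3. Without CAF_CM replicate 1, 2 and 3 they were 8 and 14, 7 and 12, and 5 and 9. No call among the 45 genes changed direction in any of 18 alternatives, and Cdkn1b, Prim1, Cdc7, Gmnn, Rfc3, Pold1 and Cdc6 kept their calls in all 18.

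**Figure D2:**
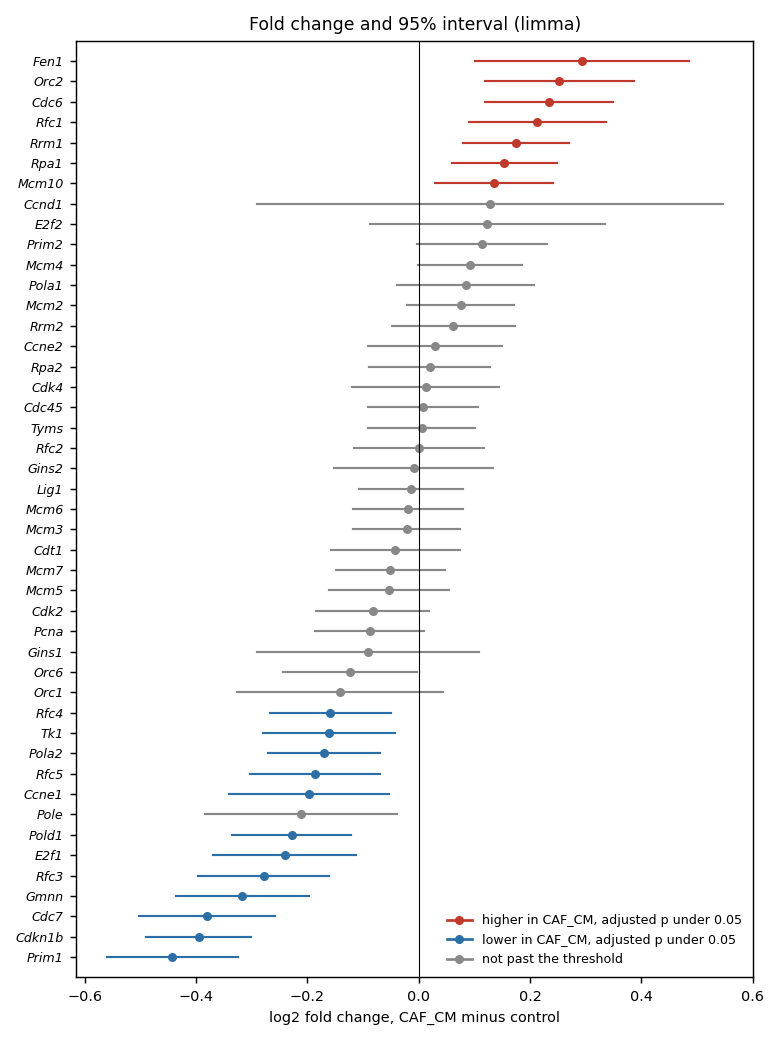
The log2 fold change (CAF_CM minus control) of each of the 45 genes is drawn as a point with its 95% interval from limma, sorted by size and coloured by call. Intervals of the 12 lower genes, from Prim1 at -0.44 to Rfc4 at -0.16, and of the 7 higher genes, from Mcm10 at 0.14 to Fen1 at 0.29, exclude zero.

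Promoters were read because E2F factors act on many of these genes through their start sites. RefSeq promoter windows (build GRCm38.p6, 250 bases before to 50 after the start, gene strand, 5′ to 3′) were found for 36 of the 45 genes, as 43 windows. At least 1 of the E2F motifs TTTGGCGC, TTTCCCGC, TTTGCCGC and TTTCGCGC, on either strand, stood in 13 of the 43 windows (30.2%) and in 2.26% of all 32851 windows of that length. By gene, 13 of 36 held one (36.1%), namely Cdc6, Cdk2, Cdt1, E2f2, Lig1, Mcm3, Mcm5, Mcm6, Mcm7, Orc1, Pola1, Pold1 and Rfc3. The motif was held by 1 of 7 higher, 2 of 11 lower and 10 of 18 uncalled genes. Matches on opposite strands overlapped in Mcm5 and in Mcm6, where 4 bases were shared. CCAAT, in either direction, stood in 58.1% of the 43 windows and 37.4% of all windows, and TTTGAA, the motif of genes expressed in G2 and mitosis, in 14.0% and 17.9%. A match describes the letters only and is not a measured site.

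The 4 windows below are shown because Cdkn1b and Prim1 were the lower genes of smallest adjusted p, and Rfc3 and Cdc6 were the lower and the higher gene of smallest adjusted p that held an E2F match. Capitals mark E2F matches (TTTCGCGC, and GCGGGAAA, which is TTTCCCGC on the other strand) and CCAAT or its reverse complement ATTGG.
Cdkn1b, chr6:134920151-134920450 (+): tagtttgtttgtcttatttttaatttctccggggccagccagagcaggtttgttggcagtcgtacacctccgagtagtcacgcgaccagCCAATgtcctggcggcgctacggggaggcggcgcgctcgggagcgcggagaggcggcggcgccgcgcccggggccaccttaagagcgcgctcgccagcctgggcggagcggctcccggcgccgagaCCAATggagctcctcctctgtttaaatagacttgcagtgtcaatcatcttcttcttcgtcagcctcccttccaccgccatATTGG
Prim1, chr10:128014965-128015264 (+): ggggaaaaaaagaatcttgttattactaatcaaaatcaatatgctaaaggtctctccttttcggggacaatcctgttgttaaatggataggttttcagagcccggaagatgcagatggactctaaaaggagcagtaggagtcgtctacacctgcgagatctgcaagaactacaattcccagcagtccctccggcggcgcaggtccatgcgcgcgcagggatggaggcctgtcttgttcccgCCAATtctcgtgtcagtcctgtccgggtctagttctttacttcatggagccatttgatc
Rfc3, chr5:151651159-151651458 (-): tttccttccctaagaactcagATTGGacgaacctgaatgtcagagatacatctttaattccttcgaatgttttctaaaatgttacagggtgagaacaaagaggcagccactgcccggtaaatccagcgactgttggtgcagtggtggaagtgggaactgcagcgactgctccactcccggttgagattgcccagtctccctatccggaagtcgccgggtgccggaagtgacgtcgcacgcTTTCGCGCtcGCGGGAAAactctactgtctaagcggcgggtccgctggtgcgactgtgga
Cdc6, chr11:98907901-98908200 (+): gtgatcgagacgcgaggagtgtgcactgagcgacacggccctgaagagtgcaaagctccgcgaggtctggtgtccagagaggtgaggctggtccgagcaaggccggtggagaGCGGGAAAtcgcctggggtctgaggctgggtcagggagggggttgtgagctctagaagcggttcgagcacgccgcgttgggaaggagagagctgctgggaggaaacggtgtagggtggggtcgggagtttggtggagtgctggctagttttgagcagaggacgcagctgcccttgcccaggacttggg
The Rfc3 window holds its E2F matches next to the start site, beginning 10 bases before it and at base 1, and the Cdc6 window holds one that begins 138 bases before the start. Rfc3 was lower and Cdc6 higher in CAF_CM libraries. The Cdkn1b window holds 3 CCAAT matches and no E2F match, and the Prim1 window 1 and none.

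Among the 8 G1/S regulators, 3 were lower in CAF_CM libraries, none was higher and 5 did not pass. The share called was 37.5%, close to the 34.4% of all genes tested. Cdkn1b had 6285, 6175 and 6335 normalized counts in CAF_CM libraries, against 8210, 8302 and 8204 in control libraries. The groups were far apart, 6265 ± 81.8 in CAF_CM and 8239 ± 55.1 in control (mean ± SD, n = 3 each), and it fell by 24.0% (log2 fold change -0.40, SE 0.043, adjusted p = 9.13e-05). E2f1, the E2F activator that drives S-phase genes, had 1019, 952 and 912 normalized counts in CAF_CM, against 1166, 1120 and 1118 in control. Its groups did not overlap, and it fell by 0.24 on the log2 scale (SE 0.058, adjusted p = 0.00850). Ccne1, the cyclin E1 gene, had 752, 676 and 659 normalized counts in CAF_CM, against 774, 801 and 813 in control. Replicate 1 of CAF_CM was close to the lowest control library, and the log2 fold change was -0.20 (SE 0.066, adjusted p = 0.0369).

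The paralogs of the fallen pair did not pass the test. Ccne2, for cyclin E2, had 1366, 1515 and 1491 normalized counts in CAF_CM, against 1408, 1429 and 1443 in control, with overlap in both directions (log2 fold change 0.029, 95% interval -0.091 to 0.15, adjusted p = 0.719). E2f2, another activator, had 762, 947 and 711 in CAF_CM, against 691, 779 and 737 in control, and replicate 2 of CAF_CM stood highest (0.12, interval -0.087 to 0.33, adjusted p = 0.350). With 1 library left out the E2f2 value ran from 0.0024, without CAF_CM replicate 2, to 0.21, without CAF_CM replicate 3. The log2 ratio of E2f1 to E2f2 reads within a library was 0.26 ± 0.22 in CAF_CM and 0.63 ± 0.12 in control, without overlap. That of Ccne1 to Ccne2 was -1.07 ± 0.18 in CAF_CM and -0.84 ± 0.018 in control, with overlap. Ratios within a library need no scaling between libraries. Of 10 ratios tested, 7 did not overlap between groups, each with an exact two-sided permutation p of 0.10, the smallest that 3 against 3 allows, and an adjusted p of 0.143. Those of Cdc45 to Mcm2 and of Pole to Pold1 overlapped, as did that of Ccne1 to Ccne2. The 10 ratios were chosen with earlier results of these data known, which may have favoured gaps between the groups. Another 7 ratios were chosen after their own values were seen and got no test. Of those, 6 did not overlap, which the choice itself favoured. The share of ratios without overlap among other gene pairs is not given, so both counts are descriptions.

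The kinase genes and cyclin D1 showed no call. Cdk4 was the most abundant of the regulators, with 15094, 12837 and 14513 normalized counts in CAF_CM, against 14036, 14084 and 13867 in control (log2 fold change 0.012, adjusted p = 0.898). The control libraries lay inside the range of the CAF_CM libraries. Cdk2 had 2494, 2547 and 2450 in CAF_CM, against 2693, 2575 and 2665 in control, a small difference without overlap that did not pass (-0.083, interval -0.18 to 0.019, adjusted p = 0.192). The ratio of Cdk2 to Cdkn1b reads was higher in all CAF_CM libraries, at -1.33 ± 0.047 log2 units in CAF_CM and -1.64 ± 0.043 in control. Ccnd1, for cyclin D1, was near the lower end of detection, with 49.4, 36.2 and 35.1 normalized counts in CAF_CM, against 33.7, 37.7 and 37.7 in control (0.13, interval -0.29 to 0.55, adjusted p = 0.647). Per length of its longest transcript it stood at 1.2 on the TPM scale in CAF_CM and 1.05 in control. On that scale Ccnd3 stood at 24.4 in CAF_CM and 20.2 in control and Cdk4 at 770 in CAF_CM and 736 in control. Ccnd3, unlike Ccnd1, was called higher, with all CAF_CM libraries above all control libraries (0.22, adjusted p = 0.0104). Ccnd2 (at most 4.82 normalized counts in a library) and Cdk6 (at most 3.14) did not pass the filter on low values. These 3 related genes were named after their values were seen.

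Without control replicate 1 E2f1 was just outside the threshold (adjusted p = 0.0515). Ccne1 lost its call without control replicate 1, 2 or 3 (0.0789, 0.118 and 0.131), without CAF_CM replicate 2 or 3 (0.0617 and 0.123), in DESeq2 (0.0620) and when length and GC content were modelled (-0.094, adjusted p = 0.233), where Ccne2 was called higher (0.20, adjusted p = 0.00683). The annotated exons of Ccne2 overlap those of Ints8 on the other strand by 17.4%, those of Ccnd1 overlap LTO1 by 23.4% and those of Cdk4 overlap Tspan31 by 19.7%. The sources used here do not give the strand setting of the counting, and reads of such pairs cannot be told apart.

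**Figure D3:**
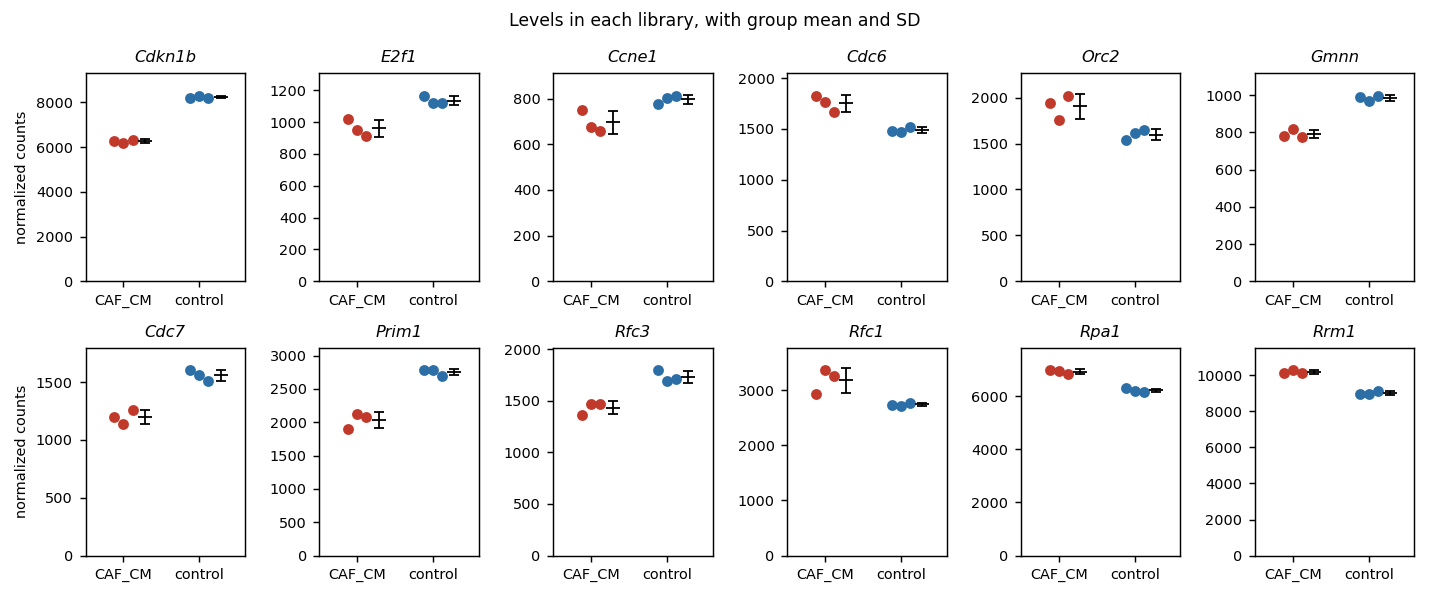
Normalized counts of 12 called genes in each library, CAF_CM (red) left of control (blue), with the group mean and SD (n = 3) as black bars and every axis starting at 0. The groups do not overlap in any panel, and the largest gaps relative to the level are those of Cdkn1b, Cdc7 and Prim1.

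Of the 12 licensing genes 2 were higher, 1 was lower and 9 did not pass. The share called was 25%, beside 34.4% of all genes tested. Cdc6, the ATPase that joins the origin recognition complex to load the helicase, had 1830, 1764 and 1667 normalized counts in CAF_CM, against 1481, 1468 and 1518 in control. All CAF_CM libraries were above all control libraries, a rise of 17.7% (log2 fold change 0.23, SE 0.052, adjusted p = 0.00540). Orc2, a subunit of that complex, had 1942, 1758 and 2024 in CAF_CM, against 1534, 1616 and 1646 in control, and rose by 0.25 log2 units (SE 0.061, adjusted p = 0.00804). Orc1 (-0.14, adjusted p = 0.220) and Orc6 (-0.12, adjusted p = 0.105), for other subunits, did not pass. Of the subunit genes outside the 45, named after their values were seen, Orc3 (-0.17, adjusted p = 0.0389) and Orc4 (-0.17, adjusted p = 0.0440) fell, and Orc5 did not pass (0.087, adjusted p = 0.366). The log2 ratio of Orc1 to Orc2 reads was -2.34 ± 0.20 in CAF_CM and -1.95 ± 0.024 in control, without overlap.

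Gmnn, for the licensing inhibitor geminin, had 778, 818 and 776 normalized counts in CAF_CM, against 989, 968 and 998 in control. It fell by 19.7%, with no overlap (log2 fold change -0.32, SE 0.055, adjusted p = 0.00125). Its target Cdt1, the loader it binds, had 1408, 1301 and 1354 in CAF_CM, against 1430, 1392 and 1360 in control, which overlap (-0.042, interval -0.16 to 0.074, adjusted p = 0.579). The log2 ratio of Cdt1 to Gmnn reads was higher in each CAF_CM library, at 0.85, 0.67 and 0.80, against 0.53, 0.52 and 0.45 in control.

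None of the 6 genes of the Mcm2 to Mcm7 helicase was called, and their median log2 fold change was -0.021. Mcm2 had 8078, 8434 and 8399 normalized counts in CAF_CM, against 7897, 7863 and 7879 in control, without overlap (0.075, interval -0.021 to 0.17, adjusted p = 0.209). Mcm4 also lay above control in all 3 libraries (0.092, interval -0.0012 to 0.18, adjusted p = 0.117). Mcm3 (-0.022), Mcm5 (-0.053), Mcm6 (-0.020) and Mcm7 (-0.051) overlapped between groups, and their intervals reached from -0.16 to 0.079 at the widest. Per transcript length the helicase genes ran from 150 (Mcm5) to 403 (Mcm7) on the TPM scale in both CAF_CM and control libraries, above the origin recognition subunits, from 14.0 (Orc1) to 76.2 (Orc6) in CAF_CM and from 14.9 to 80.2 in control.

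Orc2 lost its call without control replicate 1 (adjusted p = 0.0511), and Mcm2 gained one without CAF_CM replicate 1 (0.095, adjusted p = 0.0458) and with length and GC modelled (0.12, adjusted p = 0.0276). Without CAF_CM replicate 1, Orc6 was also called lower (-0.15, adjusted p = 0.0343), as it was with library totals (-0.17, adjusted p = 0.0313). Orc2 exons overlap Nif3l1 on the other strand by 29.8%, and Nif3l1 had 767 ± 21.9 normalized counts in CAF_CM and 793 ± 20.7 in control (adjusted p = 0.563). Of the Mcm7 transcript, 72.8% is 97.7% identical to the processed pseudogene Gm5487, which had 279 ± 6.45 normalized counts in CAF_CM and 275 ± 27.5 in control.

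**Figure D4:**
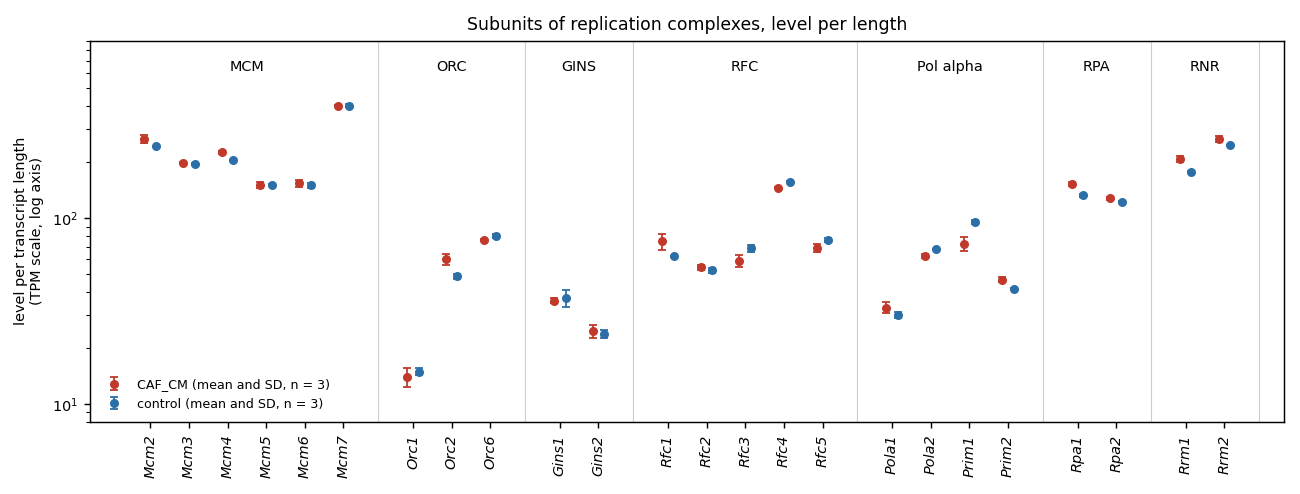
Level per length of the longest annotated transcript (TPM scale, log axis) of subunits of 7 complexes, as group mean and SD (n = 3), CAF_CM (red) left of control (blue). Mcm7 at 403 and Orc1 at 14.0 in CAF_CM and 14.9 in control are the highest and the lowest level.

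Of the 5 genes that turn the loaded helicase into a fork, 1 fell, 1 rose and 3 did not pass. The share called was 40% of these few genes, beside 34.4% of all genes tested. Cdc7, the kinase that phosphorylates the loaded Mcm proteins, had 1201, 1134 and 1258 normalized counts in CAF_CM, against 1606, 1557 and 1510 in control. The highest CAF_CM library was well below the lowest control library, and the fall was 23.2% (log2 fold change -0.38, SE 0.056, adjusted p = 4.90e-04). Dbf4, the regulatory subunit of Cdc7, had 2508 ± 124 in CAF_CM and 2497 ± 71.6 in control (adjusted p = 0.950), and was named after its values were seen. Mcm10, which binds the helicase as it is activated, had 1616, 1562 and 1617 in CAF_CM, against 1435, 1477 and 1453 in control (0.14, SE 0.048, adjusted p = 0.0485). Its groups did not overlap, but the call was at the threshold and was lost in 13 of 18 alternatives, edgeR (0.0568) and DESeq2 (0.155) among them, and without control replicate 1, 2 or 3 (0.163, 0.118 and 0.142) or CAF_CM replicate 3 (0.111). Cdc45, a component of the moving helicase, overlapped between groups (0.0077, interval -0.091 to 0.11), as did the GINS subunit genes Gins1 (-0.091) and Gins2 (-0.0088), whose exons overlap Gse1 on the other strand by 67.3%.

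Polymerase, clamp and strand-joining genes held the largest share of calls among the roles, with 3 of 16 higher, 6 lower and 7 not past the threshold. That share was 56.2%, beside 34.4% of all genes tested and 39.8% with the filter's minimum value at 50. Several of the calls were lost in alternatives given below. Prim1, the catalytic subunit of the primase that starts each new strand, had 1894, 2118 and 2072 normalized counts in CAF_CM, against 2786, 2776 and 2698 in control. It had the largest fold change of the 45 genes and no overlap, 2028 ± 119 in CAF_CM and 2753 ± 47.8 in control, a fall of 26.4% (log2 fold change -0.44, SE 0.054, adjusted p = 1.65e-04). Its partner Prim2, the large primase subunit, lay above control in all 3 libraries without passing (0.11, interval -0.0031 to 0.23, adjusted p = 0.121). The log2 ratio of Prim1 to Prim2 reads was 0.99 ± 0.11 in CAF_CM and 1.55 ± 0.042 in control, a ratio chosen after its values were seen. In polymerase alpha, which extends the primers, Pola2, the accessory subunit, had 1627, 1614 and 1607 in CAF_CM, against 1801, 1830 and 1822 in control (-0.17, SE 0.046, adjusted p = 0.0149). Both groups were tight and apart, and Pola1, the catalytic subunit, overlapped (0.084, adjusted p = 0.271).

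Of the other replicative polymerases, Pold1, the catalytic subunit of polymerase delta, fell, with 2437, 2265 and 2407 normalized counts in CAF_CM, against 2763, 2834 and 2729 in control (-0.23, SE 0.049, adjusted p = 0.00418). Pole, the catalytic subunit of polymerase epsilon, had 2062, 2624 and 2549 in CAF_CM, against 2736, 2777 and 2817 in control. Replicate 1 of CAF_CM lay far below the other libraries, and Pole was just outside the threshold (-0.21, SE 0.078, adjusted p = 0.0567). Without that library the log2 fold change was -0.10 (adjusted p = 0.0620). Its low value was not particular to Pole, whose longest transcript has 7163 bases. Other long genes were named after their values were seen. Kmt2a (16470 bases) had 1595 in CAF_CM replicate 1, against 2663 and 2604 in replicates 2 and 3. Cenpf (11130 bases) had 2966, against 4507 and 4050. Some went the other way, such as Gmps (8105 bases) with 4280, against 3896 and 4048. The part of length in this was not tested. Pole passed without CAF_CM replicate 2 (-0.28, adjusted p = 0.0126), in DESeq2 (0.0432), with library totals (0.0297), the replicate block (0.0201) or group weights (0.0209), and with length and GC modelled (-0.32, adjusted p = 2.61e-04).

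Subunits of the clamp loader RFC moved apart. Rfc1, the large subunit, had 2928, 3366 and 3246 normalized counts in CAF_CM, against 2729, 2719 and 2770 in control, and rose by 0.21 log2 units (SE 0.056, adjusted p = 0.0130). Rfc3, a small subunit, had 1357, 1469 and 1464 in CAF_CM, against 1799, 1689 and 1713 in control, and fell by 0.28 (SE 0.054, adjusted p = 0.00241). Neither pair of groups overlapped, and the log2 ratio of Rfc1 to Rfc3 reads was 1.15 ± 0.043 in CAF_CM and 0.66 ± 0.051 in control, a ratio chosen after its values were seen. That of Rfc1 to Rfc2 overlapped, at 0.39 ± 0.18 in CAF_CM and 0.18 ± 0.048 in control. The small subunit genes Rfc4 and Rfc5 fell as well. Rfc4 had 1740, 1639 and 1627 in CAF_CM, against 1865, 1847 and 1875 in control (-0.16, adjusted p = 0.0278). Rfc5 had 2401, 2169 and 2390 in CAF_CM, against 2695, 2602 and 2615 in control (-0.19, adjusted p = 0.0187). Exons of Rfc4 overlap Eif4a2 on the other strand by 12.7% and those of Rfc5 overlap Wsb2 by 10.7%, and Eif4a2 fell (-0.40) while Wsb2 rose (0.26). Rfc2, the remaining small subunit, overlapped (5.4e-04 log2 units, interval -0.12 to 0.12, adjusted p = 0.995).

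Pcna, the sliding clamp that RFC loads, had 5947, 5859 and 5724 normalized counts in CAF_CM, against 6291, 6052 and 6295 in control. The groups did not overlap, but the difference did not pass (-0.088, interval -0.19 to 0.0094, adjusted p = 0.149), and it did without CAF_CM replicate 1 (-0.10, adjusted p = 0.0490) and with library totals (-0.13, adjusted p = 0.0348). The processed pseudogene Pcna.ps2, 99.2% identical to Pcna over 51.4% of its transcript, had 1459 ± 73.1 in CAF_CM and 1644 ± 55.5 in control, so the value of Pcna is uncertain.

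The single-strand binding gene Rpa1 rose, with 6997, 6942 and 6822 normalized counts in CAF_CM, against 6300, 6191 and 6172 in control (0.15, SE 0.043, adjusted p = 0.0171). Rpa2, the middle subunit of the same complex, overlapped (0.019, adjusted p = 0.796). Fen1, the nuclease that trims lagging-strand flaps, had 240, 259 and 252 in CAF_CM, against 196, 218 and 198 in control (0.29, SE 0.088, adjusted p = 0.0238). Neither gene overlapped between groups. Lig1, the ligase that seals the trimmed fragments, was almost equal, 4375 ± 14.2 in CAF_CM and 4416 ± 39.2 in control (-0.014, interval -0.11 to 0.080, adjusted p = 0.835). Exons of Fen1 overlap those of the antisense gene Gm10143 by 78.8%, and Gm10143 had 15.2 ± 2.05 in CAF_CM and 40.3 ± 1.41 in control, so the value of Fen1 is uncertain.

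Several of these calls needed all control libraries, as did many calls over all genes. Without control replicate 1, 2 or 3 the adjusted p was 0.0961, 0.0897 and 0.104 for Rfc4, 0.0894, 0.0621 and 0.0626 for Rfc5, 0.0548, 0.0756 and 0.0666 for Pola2 and 0.0560, 0.0887 and 0.0827 for Rpa1. Rfc1 lost its call without control replicate 1 (0.0563) or 2 (0.0607), Fen1 without control replicate 1 (0.0938) or 3 (0.0897) or CAF_CM replicate 3 (0.0623) and in DESeq2 (0.0848), and Rfc4 also without CAF_CM replicate 3 (0.0834). Rpa1 also lost it with length and GC modelled (0.086, adjusted p = 0.161) and with library totals (0.0687), and Prim2 gained one with length and GC modelled (0.17, adjusted p = 0.0174).

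Of the 4 deoxynucleotide genes, 1 rose, 1 fell and 2 did not pass. The share called was 50% of these few genes, beside 34.4% of all genes tested. Rrm1, the large subunit of ribonucleotide reductase, had 10128, 10300 and 10106 normalized counts in CAF_CM, against 8956, 8965 and 9126 in control. The groups were apart, a rise of 12.9% (log2 fold change 0.17, SE 0.043, adjusted p = 0.00923). Rrm2, the small subunit, had 5514, 5242 and 4933 in CAF_CM, against 5018, 5000 and 4993 in control, and overlapped (0.062, interval -0.048 to 0.17, adjusted p = 0.369). Tk1, the thymidine salvage kinase of S phase, had 1560, 1622 and 1467 in CAF_CM, against 1755, 1765 and 1677 in control, without overlap (-0.16, SE 0.054, adjusted p = 0.0384). Tyms, which makes thymidylate anew, was almost equal, 4896 ± 88.5 in CAF_CM and 4879 ± 93.4 in control (adjusted p = 0.942). The log2 ratio of Tk1 to Tyms reads was -1.66 ± 0.095 in CAF_CM and -1.49 ± 0.034 in control, and that of Rrm2 to Rrm1 was -0.96 ± 0.079 in CAF_CM and -0.85 ± 0.018 in control, neither with overlap.

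With length and GC modelled neither call held (Rrm1 0.068, adjusted p = 0.233, and Tk1 -0.064, adjusted p = 0.322). Rrm1 lost its call without control replicate 2 (0.0616), and Tk1 without control replicate 1, 2 or 3 (0.134, 0.148 and 0.0697), without CAF_CM replicate 3 (0.130) and in DESeq2 (0.0572).

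The other genes of the pathway, from 4 lists of 114 genes of which 112 were tested, gave 34 rises and 16 falls, with a median log2 fold change of 0.071. Among 28 other G1/S regulators tested, 13 rose and 3 fell (median 0.15). The rises included Cdkn1a, for the kinase inhibitor p21, with 832 ± 58.6 normalized counts in CAF_CM and 566 ± 15.7 in control (0.55, adjusted p = 1.63e-04), the opposite direction to Cdkn1b. Skp2, which in the cell marks the p27 protein for degradation (0.25), E2f3, an activator (0.27), and E2f7, a repressor of E2F targets (0.27), rose too. With library totals as the scaling, 8 of these regulators were called higher, and without control replicate 1, 2 or 3 the number was 7, 8 and 8. The falls numbered 1, 2 and 0 without those control libraries and 1 without CAF_CM replicate 3.

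Among 25 other origin and fork genes, 6 rose and 6 fell (median 0.0052). Mtbp, a partner of the origin firing factor Ticrr (0.36), and Ddb1 (0.29) and Cul4b (0.33), subunits of the ubiquitin ligase that removes Cdt1, rose, and the helicase gene Recql4 fell (-0.37). Without control replicate 1, 2 or 3 the falls numbered 2 each time, and in DESeq2 and without CAF_CM replicate 3 they numbered 3. Of 24 other polymerase and strand-joining genes, 3 rose and 3 fell (median 0.028). Rpa3, the small subunit of the RPA complex, had 410 ± 10.8 normalized counts in CAF_CM and 590 ± 49.9 in control (-0.52, adjusted p = 4.42e-04), and Chtf18, of an alternative clamp loader, fell by 0.28, while the topoisomerase gene Top1 (0.36) and the Pcna partner gene Pclaf (0.20) rose. The rises numbered 1 without control replicate 2 and 5 without CAF_CM replicate 1. Of 35 other nucleotide synthesis genes, 12 rose and 4 fell (median 0.071). They included Ppat, the first committed enzyme of purine synthesis (0.39), Prps2, which makes its substrate (0.33), the pyrimidine kinase gene Cmpk1 (0.31) and, downward, the nucleoside transporter gene Slc29a1 (-0.40). Without control replicate 1 the falls numbered 1.

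Neighbouring cell cycle and chromatin lists had higher medians than the 45 genes in the main fit, a difference given as a description with no test. Medians of these lists with length and GC modelled are not given. Mitosis and spindle checkpoint genes gave 13 rises and 2 falls in 40 (median 0.070), with the smallest adjusted p for Kif11 (log2 fold change 0.43), Aurka (0.37), Zwint (0.33) and Nek2 (0.29). Targets of p53 and growth arrest genes gave 11 rises and 1 fall in 24 (median 0.21), with the smallest adjusted p for Zmat3 (log2 fold change 0.54), Trp53inp1 (0.47), Cdkn1a and Rprm (0.91). Chromatin modifiers gave 13 rises and 1 fall in 36 (median 0.15), with the smallest adjusted p for Chd1 (log2 fold change 0.53), Brd3 (0.36), Kdm1a (0.25) and Kdm5b (0.37). In the main fit the 45 replication genes had more falls than rises, and each of the other 7 lists had at least as many rises as falls. Rises and falls were equal in the other origin and fork list (6 each) and the other polymerase and strand-joining list (3 each). With library totals, falls outnumbered rises over all genes tested (3179 and 2231), and counts of those equal lists are not given. With library totals the rises numbered 7 in the p53 list, and the mitosis list had 12 rises and 4 falls. Without control replicate 1 the rises numbered 8 in the mitosis, 7 in the p53 and 7 in the chromatin list. Without control replicate 2 or CAF_CM replicate 3 they numbered 7 in the p53 list. Without CAF_CM replicate 1 they numbered 25 in the chromatin list. For several long genes of the chromatin list, such as Kmt2a and Kmt2c, that library was the lowest of the CAF_CM libraries. The falls of the mitosis list numbered 0 without any 1 control library or CAF_CM replicate 3 and 4 without CAF_CM replicate 1. The single fall of the chromatin list was absent without any 1 control library, and that of the p53 list without control replicate 2 or 3, while the p53 list had 2 without CAF_CM replicate 1.

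**Figure D5:**
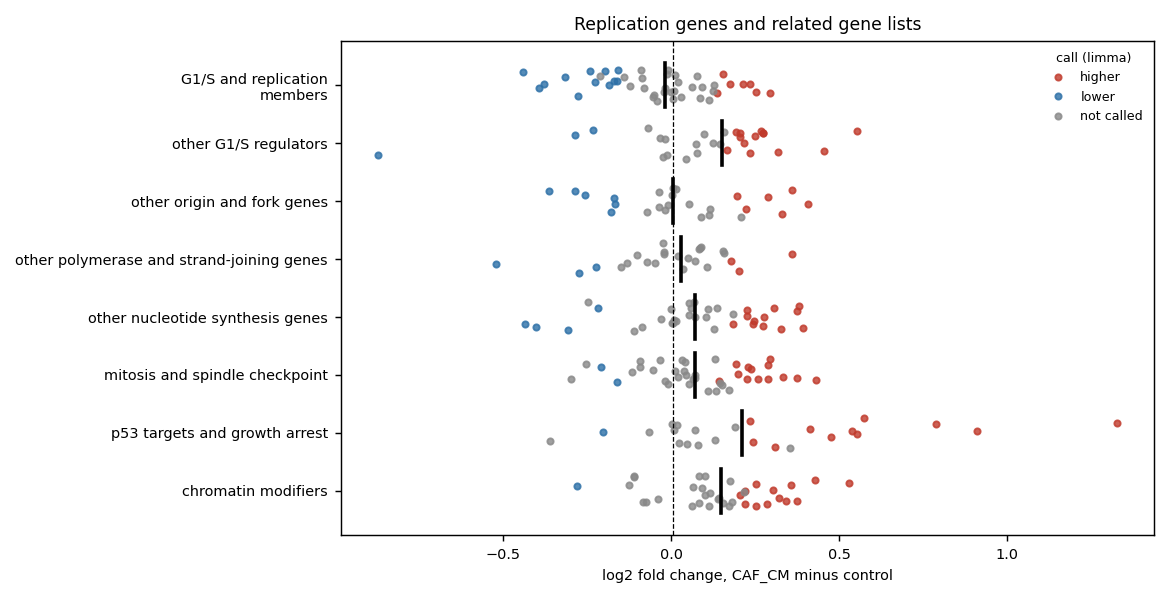
Each point is the log2 fold change (CAF_CM minus control) of 1 tested gene, coloured by call, in the 45 replication genes (top row) and 7 related lists, with a black bar at each list's median and a dashed line at the median of all genes tested. In the main fit the median of the 45 genes is -0.020 and those of the other lists run from 0.0052 to 0.21. With length and GC modelled the median of the 45 genes is 0.0040, and those of the other lists are not given.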

How the data were processed

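RNA sequencing of 6 samples of the mouse line 266.6 was analysed, 3 CAF_CM and 3 control, grouped by their titles. Per the labels' protocols the kit was Illumina TruSeq. FastQC, DESeq2 and hg19 are named in the submitters' processing notes. The aligner, counter, strand setting and mouse build are not given in the sources used here. The deposited signal is a read count per gene divided by the authors with a factor per library (1 read is worth 0.949 to 1.05), and division gave back whole reads, within 0.001, for 100% of values. Of 20764 rows, 168 carry no gene symbol (0.153% to 0.261% of reads) and stayed out. The lowest row total is 10 reads.

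The main test was limma 3.58.1 (R 4.3.3) with a variance trend on log2(value + 1), over the 16169 genes that reached 10 in 3 or more libraries, with Benjamini-Hochberg adjustment and a threshold of 0.05. Fold changes are on that scale, which understates changes of low genes. EdgeR 4.0.16 (TMM) and DESeq2 1.42.0 on the recovered reads, limma-voom, other scalings, pseudocounts and filters, group weights, the replicate number as a block, a correction for length and GC (known for 95.0% of genes) and each library left out were alternatives. On recovered reads edgeR called 5570 genes and limma 5555 on the values. The test was checked on simulated data. Levels per length used the longest GENCODE M21 transcript of each symbol on the TPM scale. Similar transcripts were sought with BLAST 2.17.0 (at least 95% identity over at least 200 bases). Promoters came from RefSeq. All 45 genes were named, with library values for called genes and, whatever their result, for Ccnd1, Cdk4, Cdk2, Ccne2, E2f2, Pcna, Mcm2, Cdt1 and Rrm2, for Pole after its values were seen, and up to 4 called genes of each related list by adjusted p. The members, lists and tests were chosen with earlier results of these data known. No 2 libraries were identical, and all 6 were counted. Replicate pairs had a chi-square per degree of freedom of 1.19 to 2.31 in control and 6.51 to 11.7 in CAF_CM. These values cannot show whether the replicates are separate cultures.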

Additional observations from a re-analysis of the deposited data

How the results depend on the processing

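No called gene of the 45 reversed in 18 alternatives, and 7 of the 19 kept their call in all of them. The 39 reversed values belonged to 14 uncalled genes, none past the threshold (log2 fold changes of at most 0.062 in size, adjusted p of 0.256 or more). They were Rfc2 -0.00515 and Tyms -0.00148 in edgeR, Rfc2 -0.00698, Tyms -0.00340 and Cdc45 -6.99e-04 in DESeq2, Rfc2 -0.00654 and Tyms -0.00147 in limma-voom, and Rfc2 -0.00599 and Tyms -0.00147 with TMM scaling. With library totals they were Ccne2 -0.016, Cdk4 -0.033, Cdc45 -0.038, Rfc2 -0.045, Tyms -0.040 and Rpa2 -0.026. With length and GC modelled they were Cdt1 0.053, Mcm3 0.035, Mcm5 0.0040, Mcm7 0.037, Gins2 0.020, Rfc2 -0.049, Tyms -0.017 and Lig1 0.062. With 1 library left out, values ran from -0.00569 to 0.0221 for Cdc45, -0.061 to 0.026 for Gins2, -0.00336 to 0.0209 for Tyms, -0.041 to 0.0019 for Mcm6, -0.040 to 0.042 for Rfc2, -0.0257 to 0.215 for Ccnd1, -0.036 to 0.081 for Cdk4 and -0.015 to 0.041 for Rpa2. The number of the 45 genes called ran from 2 to 8 higher and from 6 to 14 lower with 1 library left out, where fewer samples enter the fit. The share of all genes called ran from 21.8% to 39.9% in those fits. The median of the 45 was -0.065 with library totals, which shifted the median of all genes by -0.045 (all values on the log2 scale), and 0.0040 with length and GC modelled; the cause was not tested. Spearman's rho of fold change with transcript length, across genes that are not independent, was 0.32 over the 45 and 0.20 over all genes. Over all genes 2953 rose and 2602 fell, and with library totals 2231 and 3179. With the replicate number as a block, 6 of the 45 were higher and 13 lower, with the call of Mcm10 lost and that of Pole gained. Same-numbered libraries shared little (correlations of deviations 0.070, 0.029 and 0.030), although each library correlated best with its own number, so the numbers were not taken as pairs. Counting precision is limited most for Ccnd1, and also for Fen1, a called gene with 196 to 259 normalized counts in a library. Gins1 (329 to 399) and Orc1 (338 to 429) were low as well. The unequal spread of the groups limits all tests.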
